A study of Mus musculus with 3 samples.

Results

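Many IFIT and IFITM genes encode interferon-inducible proteins that act against viruses. From these families 8 genes were taken by name from a table of 21760 genes measured in corneas of mice. The cornea is the clear outer layer of the eye that light passes through. The 4 IFIT members were Ifit1, Ifit2, Ifit3 and Ifit3b, and the 4 IFITM members were Ifitm1, Ifitm2, Ifitm3 and Ifitm10. RNA was sequenced in 3 libraries, 1 per group. Mice of the PNU-282987 group received PNU-282987, which activates the α7 type of nicotinic acetylcholine receptor, in eyedrops 3 times a day. Mice of the excision group had the lacrimal gland removed, which takes away a source of tears and serves as a surgical model of dry eye. Sham mice had an incision at the same place with the glands left alone. The labels give no strain, age, sex or sampling time, and leave unsaid whether gland surgery was done in the PNU-282987 mice and whether each library holds 1 cornea or a pool. The study concerned the α7 receptor in dry eye disease.

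IFIT proteins are cytosolic and built from tetratricopeptide repeats, and several bind viral RNA at its 5′ end. IFITM proteins are small membrane proteins of the CD225 family that hinder the fusion of a virus with the cell membrane or the endosome. Interferons of type I and type III act through receptors and JAK kinases on transcription factors that bind the interferon-stimulated response element in the promoters of such genes. The corneal epithelium faces the outside and can mount this response itself.

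All 4 IFIT members were far higher in the excision library than in the other two, and Ifitm3 was the single IFITM member that was at least 2-fold higher there. Thus 5 of 8 members were called higher in excision than in sham and 0 lower, where 4.01% of all genes with a ratio were called higher and 5.48% lower. In PNU-282987 against excision the same 5 were called lower and 0 higher, where 5.62% of all genes were called lower and 3.90% higher. In PNU-282987 against sham no member was called in either direction, where 2.58% of all genes were called higher and 4.96% lower. With 1 library per group there was no spread between animals to set a difference against, so no test was made, and each ratio compares 2 libraries, not 2 conditions. Ratios are of counts scaled to library size by the TMM method, and the 95% interval behind each is the exact binomial interval of the 2 counts, so it holds counting error and no difference between animals. Calls of higher or lower needed a ratio of 2-fold or more with an interval that excluded equal levels. All 8 members passed the minimum of 20 counts in at least 1 library.

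The promoter stretches below show the interferon-stimulated response element core in members that stood apart in excision, and in Ifitm2, which did not. They come from RefSeq promoter windows on GRCm38.p6, each 300 bases long around a start site and mostly before it, and all 8 members matched by gene symbol, with 11 windows. The build used for the counts is not given in the sources used here. The core was searched as GAAA, any 2 bases, then GAAA again, on both strands, so that a match on the opposite strand reads as TTTC, 2 bases and TTTC, and capitals mark each match. Sequences run 5′ to 3′ along the gene's own strand, and position 0 is the first transcribed base.
Ifit1, chr19:34640765-34640833, plus strand: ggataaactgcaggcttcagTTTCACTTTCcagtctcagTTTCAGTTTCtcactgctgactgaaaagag
Ifit3, chr19:34583353-34583436, plus strand: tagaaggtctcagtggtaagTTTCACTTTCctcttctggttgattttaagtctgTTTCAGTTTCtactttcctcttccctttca
Ifit3b, chr19:34607749-34607832, plus strand: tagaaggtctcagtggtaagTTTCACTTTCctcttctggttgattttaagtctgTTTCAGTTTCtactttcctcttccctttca
Ifitm3, chr7:141010714-141010743, minus strand: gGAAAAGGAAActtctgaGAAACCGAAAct
Ifitm2, chr7:140955979-140956008, minus strand: gGAAAAGGAAAttgctagagaaagggcggg

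The stretches of Ifit1, Ifit3 and Ifit3b lay outside every exon of the GENCODE M21 annotation. Ifit3 and Ifit3b were identical over the 84 bases shown, and each held 2 matches. The 2 matches of Ifit1 began at positions -104 and -85. The same bases, read on the other strand, are the matches at positions -70 and -51 of a start site of Ifit1bl2, an IFIT1-like gene that runs the opposite way. In Ifitm3 both matches lay in the annotated first exon, beginning at positions 2 and 19, and in Ifitm2 the 1 match began at position -46, in a stretch partly inside its annotated first exon. Ifitm2 and Ifitm3 had the same letters at their first match and were identical at 17 of the 30 bases shown.

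In all, 5 of the 8 members had the core in a window: Ifit1, Ifit3, Ifit3b, Ifitm2 and Ifitm3. Of 32851 RefSeq windows of the same length, 3.44% held it. That share is per window, whereas the members are counted per gene over 11 windows. Ifit3 and Ifit3b, identical over the stretch shown, are not separate instances. Ifit2, Ifitm1 and Ifitm10 had no match in their windows, which says only that these letters are not there. A second motif, the gamma-activated site searched as TTCNNNGAA, which reads the same on both strands, had 1 match each in Ifit2, starting at position -241, and in Ifitm3, starting at position 13. In Ifitm3 its bases overlapped those of the second core match, and 8.30% of all windows held this motif. A match is a description of letters and not evidence of binding.

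**Figure D1:**
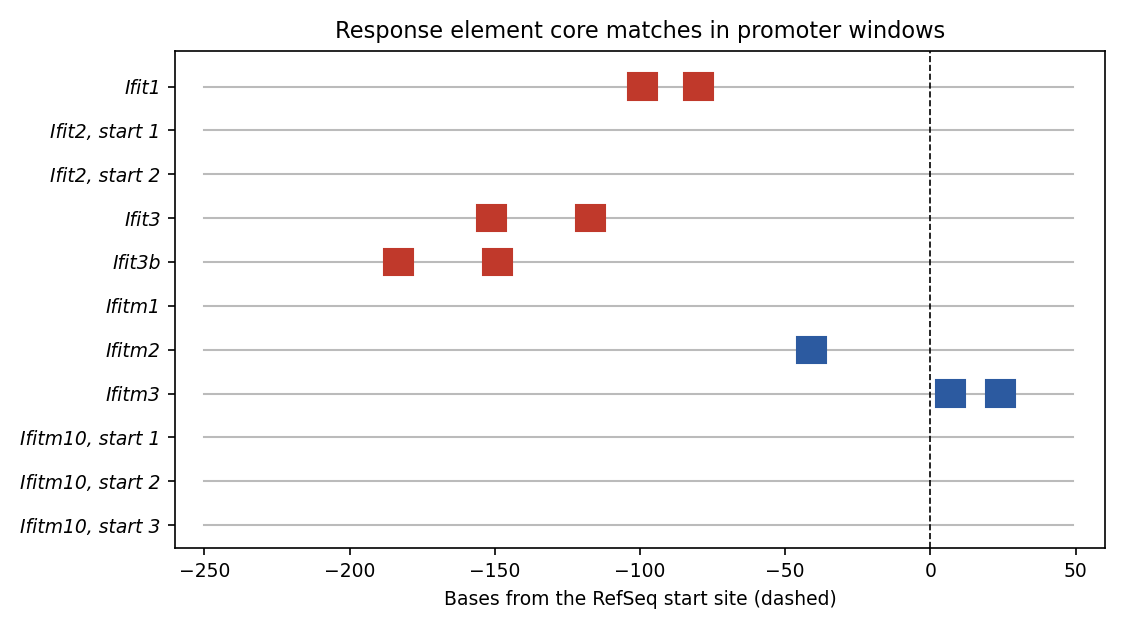
Matches to the response element core along the promoter windows of the 8 members, in bases from the RefSeq start site (dashed line), with a line for each window and a box for each match (red, IFIT; blue, IFITM). Ifit1, Ifit3, Ifit3b and Ifitm3 have 2 boxes each, Ifitm2 has 1, and genes with several start sites are numbered by position on the chromosome.

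The table behind these values held 39616004 counts for PNU-282987, 37692972 for excision and 37703843 for sham. Markers of corneal epithelium such as Krt12, Krt5 and Aldh3a1 were abundant in every library, and 0 of the 8 epithelial markers listed was at 0 counts in any. They summed to 93231 CPM (counts per 1000000, scaled by TMM) in PNU-282987, 77904 CPM in excision and 82228 CPM in sham. Of the 8, 1 was called higher in excision than in sham and 1 higher in PNU-282987 than in sham. Other tissues differed between libraries as well. Summed over 9 lens genes, the level was 719 CPM in PNU-282987, 163 CPM in excision and 743 CPM in sham, with 8 of the 9 lower in excision than in sham and Mip at 0 in excision. Corneal endothelial markers summed to 404 CPM in PNU-282987, 145 CPM in excision and 686 CPM in sham, with 6 of 6 lower in excision than in sham. Conjunctival and gland markers summed to 5819 CPM in PNU-282987, 3773 CPM in excision and 2245 CPM in sham, with 9 of 10 higher in PNU-282987 than in sham. Stromal markers summed to 1133 CPM in PNU-282987, 1069 CPM in excision and 1689 CPM in sham, with 3 of 8 lower in excision than in sham. Of 6 retinal markers, 5 were lower in excision than in sham and 5 higher in PNU-282987 than in excision. Red blood cell markers summed to 9.71 CPM in PNU-282987, 17.2 CPM in excision and 71.9 CPM in sham, and pigment cell markers to 5.85 CPM, 7.52 CPM and 9.73 CPM in the same order. The part of these tissues in the differences of the members was not tested. In bulk RNA, fewer cells of a type and less RNA per cell cannot be told apart.

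Ifit1 (gene ID 15957) encodes the protein that binds RNA whose cap lacks the methyl mark of host messages. It had 809 counts in PNU-282987, 9905 in excision and 1063 in sham. The excision library alone was high, at 9.80-fold the sham level (9.20 to 10.5), and the PNU-282987 library was 12.8-fold lower than excision (11.9 to 13.8). Ifit1 had the largest ratio of the 8 members, and 59 of the 14171 genes with a ratio had a larger one between excision and sham. Against sham, PNU-282987 was 1.31-fold lower (1.19 to 1.43).

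Ifit3 (gene ID 15959) encodes a partner that, in human cells, stabilises IFIT1 and strengthens its grip on RNA. Its counts were 2236 in PNU-282987, 19605 in excision and 2789 in sham. Excision stood at 7.40-fold the sham level (7.11 to 7.70), and PNU-282987 was 9.17-fold lower than excision (8.78 to 9.59). Ifit3b (gene ID 667370), a mouse duplicate of Ifit3, had 1519 counts in PNU-282987, 9853 in excision and 1824 in sham. Its excision level was 5.68-fold that of sham (5.41 to 5.98), and PNU-282987 was 6.79-fold lower than excision (6.43 to 7.17). For both genes PNU-282987 lay slightly under sham, by 1.24-fold for Ifit3 (1.17 to 1.31) and 1.19-fold for Ifit3b (1.11 to 1.28).

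Ifit3 and Ifit3b resemble each other closely enough to exchange reads. Of the distinct runs of 100 bases in the GENCODE M21 transcripts of Ifit3, 31.7% also occurred in Ifit3b, and 27.4% of those of Ifit3b occurred in Ifit3. How the authors' counting treated such reads is not given in the sources used here, which leaves the split between the pair uncertain. Ifit3b took 40.5% of the pair's counts in PNU-282987 (exact Clopper-Pearson 95% interval 38.9 to 42.0), 33.4% in excision (32.9 to 34.0) and 39.5% in sham (38.1 to 41.0). The share was thus lower in excision than in the other two by more than counting error. With both genes summed, which avoids the split, the log2 ratio was 2.75 for excision against sham and -3.04 for PNU-282987 against excision. Reads from Ifit1 were less exposed, since 3.29% of its runs occurred in another gene, Ifit1bl2, and Ifit2 and Ifit1bl1 shared none with Ifit1.

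Ifit2 (gene ID 15958), which encodes an RNA-binding member that forms complexes with the other IFIT proteins, was the least abundant of the 4 IFIT members. It had 144 counts in PNU-282987, 401 in excision and 111 in sham. Excision was again the highest, at 3.80-fold the sham level (3.07 to 4.73), and PNU-282987 was 2.91-fold lower than excision (2.40 to 3.55). Its interval for excision against sham lay wholly under those of Ifit1, Ifit3 and Ifit3b. Unlike those 3 genes, Ifit2 was 1.30-fold higher in PNU-282987 than in sham (1.01 to 1.69), a ratio whose interval barely left equal levels.

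**Figure D2:**
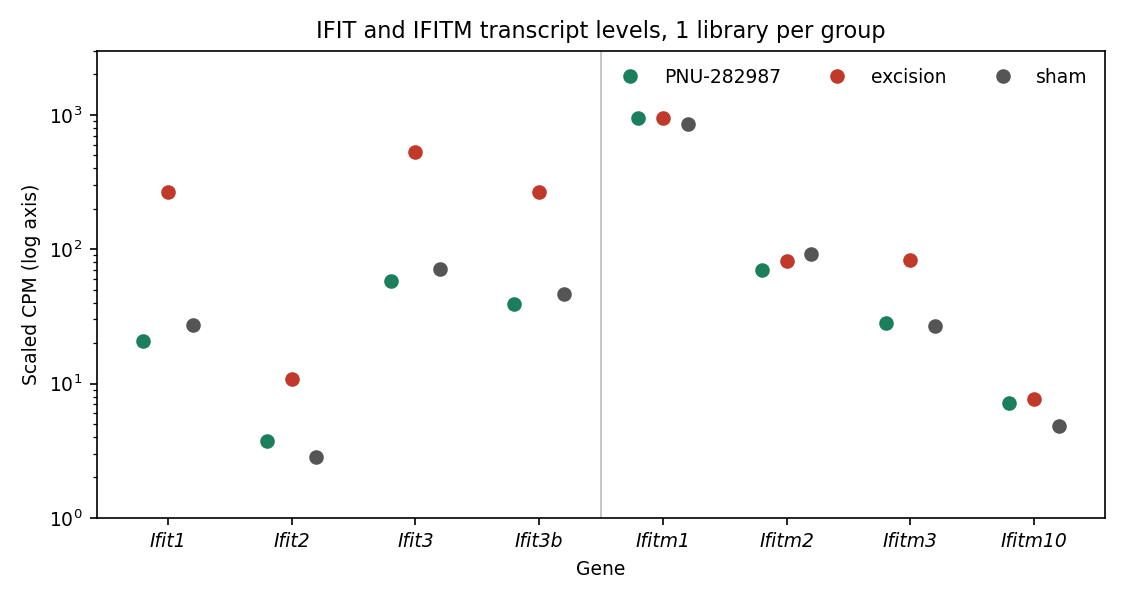
Scaled CPM of the 8 members on a log axis, with 1 point per library (green, PNU-282987; red, excision; grey, sham). The red point stands well above the other two for Ifit1, Ifit2, Ifit3, Ifit3b and Ifitm3, whereas for Ifitm1, Ifitm2 and Ifitm10 the 3 points lie within 2-fold of each other.

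Per kilobase of exon, with exon lengths from GENCODE M21, the order Ifit3, Ifit3b, Ifit1, Ifit2 held in all 3 libraries. Ifit3 stood at 33.0 scaled CPM per kb in PNU-282987, 303 in excision and 40.9 in sham. Ifit2 stood at 0.944 in PNU-282987, 2.75 in excision and 0.724 in sham on the same scale. The steps between neighbours in this order were larger than counting error, but their size changed. They also rest on these exon lengths and on the uncertain split of reads between Ifit3 and Ifit3b, which the intervals do not cover. Ifit1 was 8.31-fold above Ifit2 in PNU-282987 (6.95 to 9.99), 36.5-fold in excision (33.0 to 40.5) and 14.2-fold in sham (11.6 to 17.4). Ifit3b was 2.49-fold above Ifit1 in PNU-282987 (2.29 to 2.72), 1.32-fold in excision (1.28 to 1.36) and 2.28-fold in sham (2.11 to 2.46). In the excision library Ifit1 thus stood nearer to Ifit3b and farther from Ifit2. Summed over the 4 IFIT members, the level was 121 CPM in PNU-282987, 1071 CPM in excision and 148 CPM in sham.

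Among the IFITM members only Ifitm3 passed 2-fold. Ifitm3 (gene ID 66141) encodes the endosomal protein best known for blocking influenza virus entry, and had 1096 counts in PNU-282987, 3081 in excision and 1055 in sham. Excision was 3.07-fold higher than sham (2.86 to 3.30), and PNU-282987 was 2.94-fold lower than excision (2.74 to 3.15). PNU-282987 and sham could not be told apart at this depth, at 1.04-fold (0.959 to 1.14). None of the runs of 100 bases of Ifitm3 occurred in another gene's transcripts.

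Ifitm1 (gene ID 68713), a member that in human cells sits mainly at the cell surface, was the most abundant of the 8, by counts and per kilobase of exon. It had 36607 counts in PNU-282987, 35110 in excision and 33155 in sham. The 3 libraries were close to each other. Excision stood at 1.11-fold the sham level (1.097 to 1.13), PNU-282987 stood at 1.11-fold sham (1.09 to 1.13), and PNU-282987 over excision was 0.997-fold (0.982 to 1.01), a ratio that turned just above equality under DESeq2 size factors (log2 0.0022).

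Ifitm2 (gene ID 80876), which encodes an endosomal relative of Ifitm3, went the other way by a small amount. Its counts were 2717 in PNU-282987, 3018 in excision and 3568 in sham. Sham was the highest library, with excision 1.12-fold lower than sham (1.07 to 1.18) and PNU-282987 1.31-fold lower than sham (1.24 to 1.37). Of its runs of 100 bases, 30.4% occurred in Gm45717, a gene model that overlaps 40.9% of its exon bases and is not analysed here. Whether such reads were dropped or counted to Ifitm2 is not given in the sources used here.

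Ifitm10 (gene ID 320802), a distant relative whose function is little known, had 276 counts in PNU-282987, 285 in excision and 190 in sham. Both libraries were above sham and close to each other. Excision was 1.58-fold higher than sham (1.31 to 1.91), PNU-282987 was 1.46-fold higher than sham (1.21 to 1.77), and PNU-282987 over excision was 0.926-fold (0.782 to 1.096), which includes equal levels. It was the single member that was higher than sham by over 1.4-fold in both libraries, although under the 2-fold limit.

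Per kilobase of exon, Ifitm1 led its family in every library, at 862 scaled CPM per kb in PNU-282987, 865 in excision and 776 in sham. The distance between the next genes in the order, Ifitm2 and Ifitm3, was much smaller in excision. Ifitm2 stood 2.57-fold above Ifitm3 in PNU-282987 (2.39 to 2.76) and 3.50-fold in sham (3.27 to 3.75), but at 1.01-fold in excision (0.964 to 1.07), where the 2 levels did not differ beyond counting error. These ratios rest on the exon lengths used, and Ifitm2 may lack reads from the exon bases that overlap Gm45717. The intervals do not cover either. Of the counts summed over Ifitm1, Ifitm2 and Ifitm3, Ifitm3 held 2.71% in PNU-282987 (2.56 to 2.87), 7.48% in excision (7.22 to 7.73) and 2.79% in sham (2.63 to 2.96). Ifitm1 made up most of the family, and the 4 IFITM members together differed little between libraries, at 1048 CPM in PNU-282987, 1118 CPM in excision and 972 CPM in sham.

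**Figure D3:**
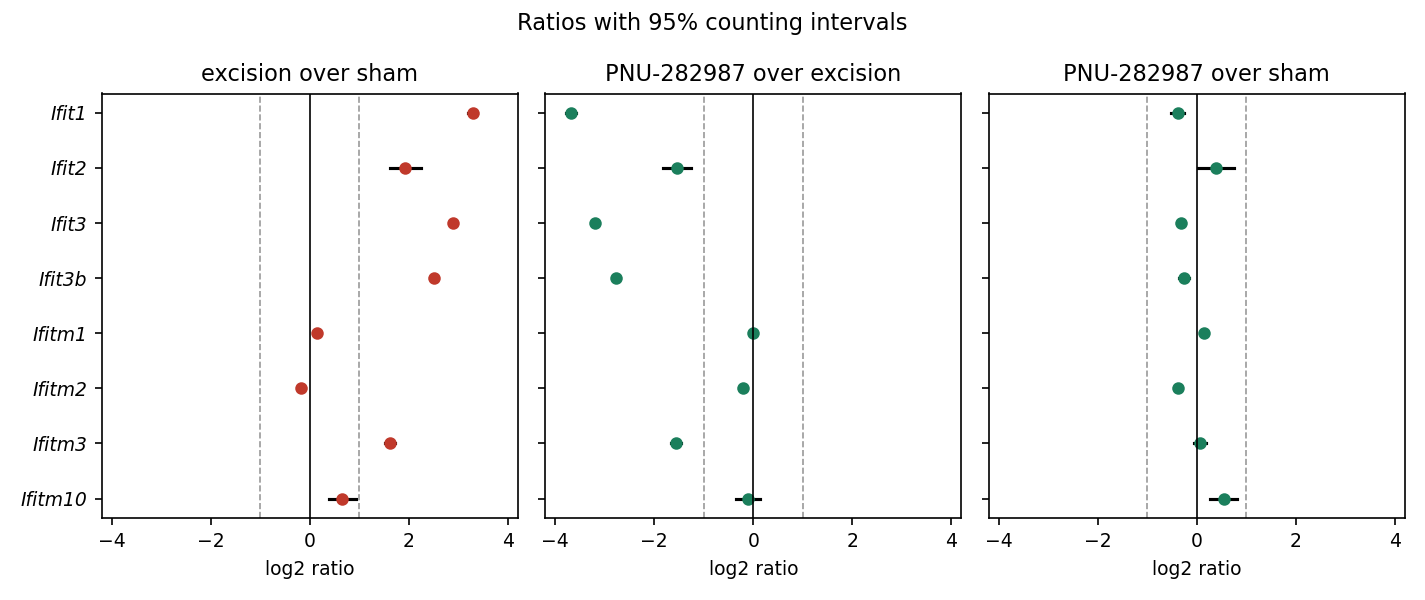
Log2 ratios of the 8 members in the 3 comparisons, with 95% counting intervals as bars (hidden behind the point where narrow) and dashed lines at 2-fold. In excision over sham the 4 IFIT members and Ifitm3 lie right of the line, in PNU-282987 over excision the same 5 lie left of it, and in PNU-282987 over sham all 8 lie between the lines.

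For excision against sham the median log2 ratio was 2.70 over the IFIT members and 0.41 over the IFITM members, against -0.0026 over all genes. For PNU-282987 against excision the medians were -2.98 for IFIT, -0.16 for IFITM and 0.0076 for all genes. For PNU-282987 against sham they were -0.28 for IFIT, 0.11 for IFITM and 0.00030 for all genes. The comparisons share libraries: excision enters the first and the second, so a high excision level alone makes a member higher in one and lower in the other.

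**Figure D4:**
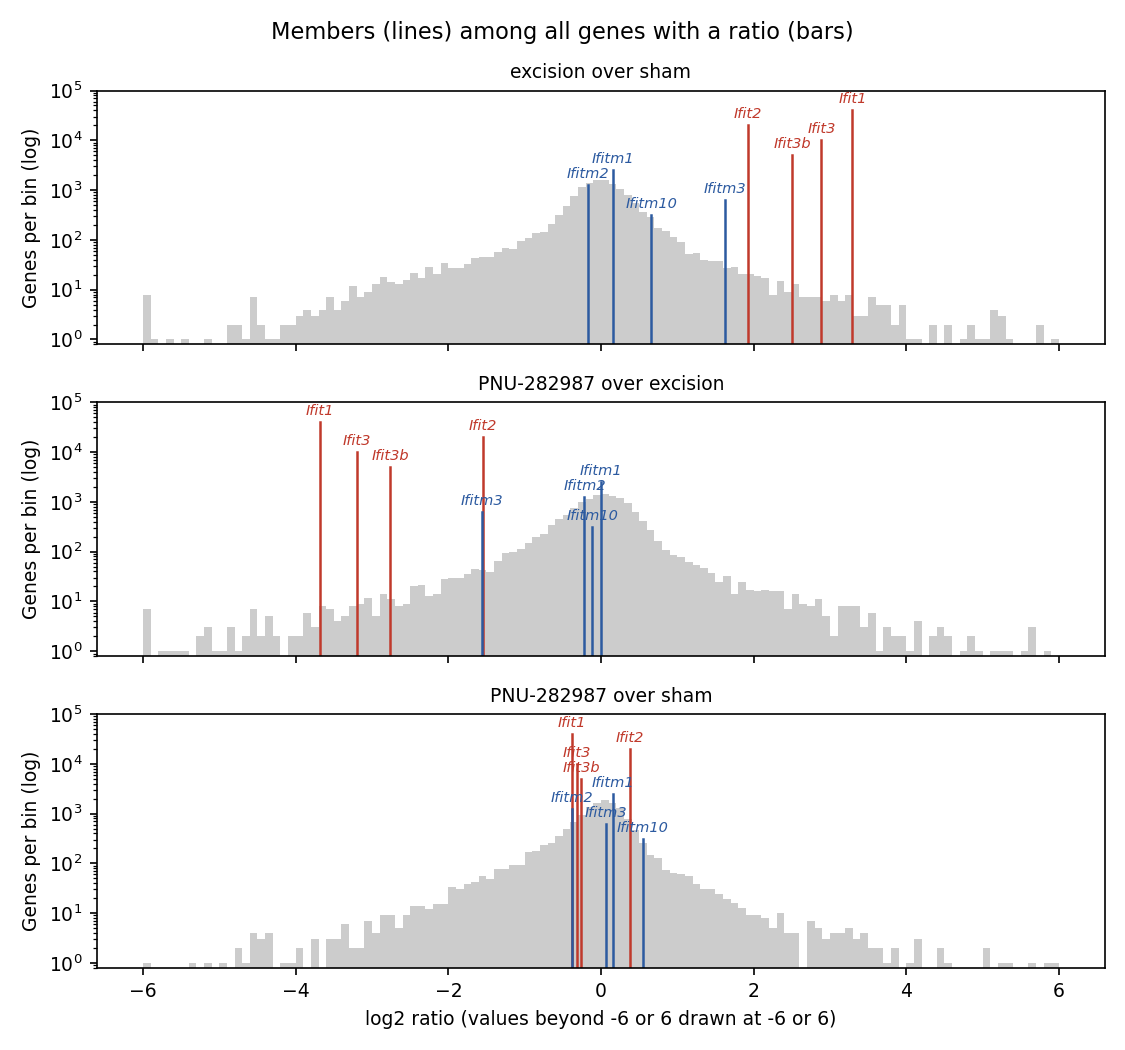
Distribution of log2 ratios over all genes with a ratio in each comparison (grey bars, log count axis), with a line at each member's ratio (red, IFIT; blue, IFITM; line height has no meaning). Ifit1 at 3.29, Ifit3 at 2.89 and Ifit3b at 2.51 lie far out in the right tail of excision over sham. Ifitm1 at 0.16 and Ifitm2 at -0.17 lie in its centre. In PNU-282987 over sham all 8 lie between -0.39 and 0.55, with the highest, Ifitm10, above 93.3% of genes.

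The flanking genes with at least 20 counts, beside the IFIT run and beside Ifitm1, Ifitm2 and Ifitm3, were not called. For excision against sham, 4.01% of all genes with a ratio were called higher and 5.48% lower. A count of 0 of 12 is near those shares and does not set the flanking genes apart from other genes. The IFIT genes form one run on the chromosome in the RefSeq gene order of GRCm38.p6, and of the 12 nearest genes with at least 20 counts, 6 on each side, 0 were called in any of the 3 comparisons. Their log2 ratios for excision against sham ran between -0.62 for Acta2, a smooth muscle actin, and 0.33 for Pcgf5. Ch25h, also beside the IFIT run, was under the minimum and given no ratio. It had 9 counts in PNU-282987, 12 in excision and 1 in sham, and its counting interval for excision over sham was 1.87 to 540. Around Ifitm1, Ifitm2 and Ifitm3, likewise 0 of 12 flanking genes were called, with log2 ratios of -0.44 to 0.47 for excision against sham. Within that run Ifitm5, a bone-forming cell gene, had 10 counts in PNU-282987, 12 in excision and 9 in sham, and Ifitm6 had 0, 0 and 1 in the same order, so neither was given a ratio. Ifitm10 lies apart from the others. Of its 12 flanking genes, 2 were called higher in excision than in sham, namely Dusp8 and Muc5ac, and 2 were higher and 1 lower in PNU-282987 than in excision, namely Muc5b, Muc5ac and the lower Tnni2. Muc5ac, the mucin of conjunctival goblet cells, had 2980 counts in PNU-282987, 11 in excision and 1 in sham.

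**Figure D5:**
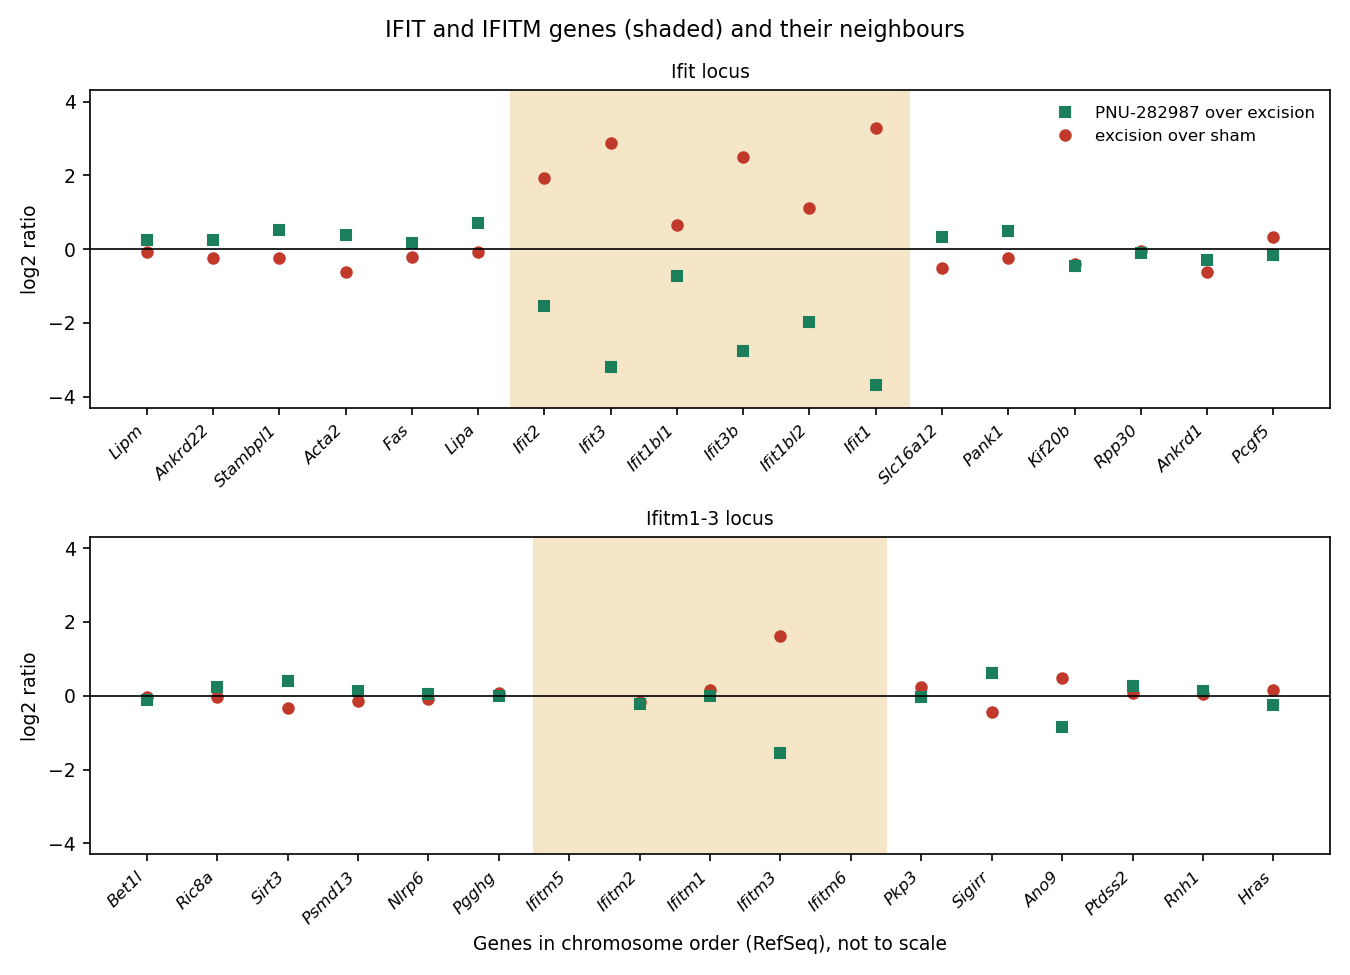
Log2 ratios of the genes at the Ifit locus (top) and the Ifitm1 to Ifitm3 locus (bottom) in chromosome order, evenly spaced, for PNU-282987 over excision (green squares) and excision over sham (red circles), with IFIT and IFITM genes shaded. Within the shading the IFIT genes and Ifitm3 move apart in opposite directions, the flanking genes stay within 1 log2 unit of 0, and Ifitm5 and Ifitm6 have no ratio.

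Inside the IFIT run lie the IFIT1-like genes Ifit1bl1 and Ifit1bl2, which were not among the 8. Ifit1bl1 (gene ID 667373) was far more abundant than any IFIT member, with 50389 counts in PNU-282987, 80326 in excision and 53996 in sham. Per kilobase of exon this was 574 scaled CPM in PNU-282987, 957 in excision and 612 in sham. The gene took 91.3% of the counts of the 6 genes in PNU-282987 (91.1 to 91.6), 66.7% in excision (66.5 to 67.0) and 90.1% in sham (89.9 to 90.4). Excision was highest again, but by 1.57-fold over sham (1.55 to 1.58), under the limit, and 0.510% of its runs of 100 bases occurred in another gene. Ifit1bl2 (gene ID 112419), which shares its promoter stretch with Ifit1, had 70 counts in PNU-282987, 264 in excision and 129 in sham. It was 2.15-fold higher in excision than in sham (1.74 to 2.68), against 9.80-fold for Ifit1, and the 2 intervals lay far apart. Of 12 other IFIT-like and CD225 family genes listed, 9 were in the table and 4 measured, with 1, Ifit1bl2, higher in excision than in sham and 1 lower. The lower one was Prrt1, a synaptic CD225 protein, with 16 counts in PNU-282987, 12 in excision and 33 in sham.

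The pathway that leads to these genes was described by lists drawn up with earlier results of these data known. Stat2, a factor that JAK kinases activate, had 980 counts in PNU-282987, 3448 in excision and 1064 in sham (3.41-fold over sham in excision, 3.18 to 3.66). Irf9, its DNA-binding partner, had 1742, 4559 and 2129 counts in the same order (2.25-fold, 2.14 to 2.37). Both were lower in PNU-282987 than in excision, and neither was called between PNU-282987 and sham. No receptor or JAK gene was called, as with Ifnlr1, the receptor chain for interferon lambda, at 1191 counts in PNU-282987, 1226 in excision and 1165 in sham.

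Of the interferon ligand genes 6 were in the table and 2 measured, Ifnl2 and Ifnl3, both encoding interferon lambda. Ifnl2 had 0 counts in PNU-282987, 101 in excision and 0 in sham, and Ifnl3 had 0, 82 and 0 in the same order. With 3 counts standing in for the 0 of sham, excision was 35.4-fold higher for Ifnl2 and 28.8-fold for Ifnl3, a near-identical pair that may share reads. The lower limits of the exact 95% counting intervals were 28.3-fold for Ifnl2 and 22.9-fold for Ifnl3. Both passed the count minimum only through excision and so had to differ. Ifnb1, which encodes interferon beta, had 0 counts in PNU-282987, 4 in excision and 0 in sham.

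Among 16 measured sensors and inducing factors, excision was called higher than sham for 4 and lower for 1. Over all genes with a ratio, 4.01% were called higher and 5.48% lower in this comparison. Dhx58, a cytosolic RNA sensor, was 4.23-fold higher (3.87 to 4.64) and Irf7, the factor that amplifies interferon output, 2.34-fold (2.26 to 2.42), while Sting1, the adaptor for DNA sensing, was 2.10-fold lower (1.42 to 3.17). Irf8, a factor of myeloid cells, had another pattern, with 111 counts in PNU-282987, 102 in excision and 46 in sham. It was higher than sham in PNU-282987 (2.43-fold, 1.71 to 3.50) and in excision (2.33-fold, 1.63 to 3.38). In PNU-282987 against excision, 2 of the 16, Dhx58 and Irf7, were lower and 0 higher, where 5.62% of all genes were called lower and 3.90% higher. Of 6 feedback inhibitors 2 were higher, led by Usp18, which blocks the type I receptor, at 337 counts in PNU-282987, 2822 in excision and 302 in sham (9.83-fold over sham, 8.73 to 11.1), a ratio whose interval held that of Ifit1. Socs1, which inhibits JAK kinases, had 43, 141 and 66 counts in the same order (2.25-fold, 1.67 to 3.06). Of the 6 inhibitors, 3 were lower and 0 higher in PNU-282987 than in excision, and 1 was lower and 0 higher in PNU-282987 than in sham. Of 28 other interferon-stimulated genes measured, 19 were higher in excision than in sham and 0 lower (median 1.66), and 18 were lower in PNU-282987 than in excision. The largest ratio was that of Ifi27l2a, with 118 counts in PNU-282987, 13664 in excision and 370 in sham (38.9-fold over sham, 35.0 to 43.2). It was followed by Cmpk2, a mitochondrial nucleotide kinase (13.8-fold, 11.4 to 16.8), Rsad2, which encodes viperin (12.4-fold, 10.6 to 14.6), and Oas2, an enzyme that makes the activator of RNase L (11.8-fold, 11.0 to 12.7). Between PNU-282987 and sham, 7 of these 28 were called lower in PNU-282987 and 0 higher, among them Ifi27l2a, Rsad2 and Oas2. No IFIT or IFITM member was called in that comparison.

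Genes for partners of the 2 protein families were not called, but these lists are short. Over all genes with a ratio, 2.58% to 5.62% were called per direction and comparison. A count of 0 of 10 is near that share and does not set partner genes apart. Of 10 enzymes and binding proteins of the mRNA cap, whose methyl marks affect IFIT1 binding, 0 were called in any comparison. The median log2 ratio of this list was -0.24 for excision against sham. Cmtr1, the enzyme that adds the mark to the first base, had 74 counts in PNU-282987, 83 in excision and 50 in sham. Of 10 enzymes and partners of IFITM proteins, 0 were called, and Zdhhc20, a palmitoyl transferase that acts on IFITM3 in human cells, had 2005 counts in PNU-282987, 1990 in excision and 2026 in sham.

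Markers of leukocytes differed in the same direction as the IFIT members in the 2 comparisons with excision, but not between PNU-282987 and sham. Of 16 leukocyte markers 15 were measured. Excision was called higher than sham for 11 and lower for 1, and PNU-282987 was called higher than excision for 1 and lower for 8. Over all genes with a ratio, the shares in the same order were 4.01%, 5.48%, 3.90% and 5.62%. Between PNU-282987 and sham, PNU-282987 was called higher for 3 and lower for 0, where 2.58% of all genes were called higher and 4.96% lower. The median log2 ratio was 0.60 over the leukocyte markers with a ratio, against -0.28 over the IFIT members. The summed level of the leukocyte markers was 249 CPM in PNU-282987, 373 CPM in excision and 226 CPM in sham, most of it from Itgam with 6949, 9385 and 6871 counts in the same order. Ptprc, the pan-leukocyte marker, had 17 counts in PNU-282987, 36 in excision and 6 in sham. With Itgam so far above Ptprc, the sum mostly follows Itgam and is not read here as a level of leukocytes. Cd3g was at 0 in PNU-282987 and sham, Siglech was at 0 in PNU-282987, and Cd8a was at 0 in sham. The part of these cells in the IFIT and Ifitm3 differences was not tested. Vascular and lymphatic markers summed to 4.35 CPM in PNU-282987, 6.47 CPM in excision and 5.79 CPM in sham, and their part was not tested either.

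By pattern over the 3 libraries, measured as the Euclidean distance between pairs of log2 ratios against sham, the 5 genes nearest to Ifit1 among 10995 genes were Mndal, Phf11b, Sp100, Gvin1 and Gbp6, at distances of 0.35 to 0.50. Sp100, which encodes a nuclear body protein, had 485 counts in PNU-282987, 4032 in excision and 542 in sham. Among the nearest to Ifitm3 were Nlrp1b, Oasl2, C1qc and Lipg, at distances of 0.15 to 0.22. With 3 libraries such likeness rests on 2 numbers per gene and is given as a description.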

How the data were processed

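Corneal RNA of 3 mouse libraries was measured, 1 per group. Extraction used TRIzol and library preparation a VAHTS Universal V6 kit, per the labels' protocols. The authors deposited whole-number counts of reads per gene, used here as deposited. HTSeq and R 3.2.0 were used upstream, per the submitters' processing notes. Not given in the sources used here are the aligner, genome build, annotation, strand setting and handling of shared reads. Columns were matched to samples by title.

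Counts were scaled with TMM factors (0.980 for PNU-282987, 0.985 for excision, 1.04 for sham) from edgeR 4.0.16 in R 4.3.3, and ratios and intervals were computed in Python 3.11.15 with SciPy 1.17.1. Of 21760 genes, 14180 had at least 20 counts in a library. No count was added before a ratio, 3 counts stood in for a count of 0, and no ratio was given where both libraries had 3 counts or fewer and one had 0. No p-values were computed, since each group has 1 library. The floor of 3 counts is 0.0773 CPM in PNU-282987, 0.0808 in excision and 0.0768 in sham. Both intervals and floors hold counting error alone and no difference between animals. No molecular identifiers were counted and reads may come from the same molecule, so the intervals may be too narrow even for counting error. The scheme was tested on simulated data that held counting error alone. That test cannot show how the calls fare against differences between animals.

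The members and gene lists were chosen with earlier results of these data known. All 8 members are named with their values. Named besides are up to 4 called genes of each pathway list by the size of the ratio of excision to sham, and the 5 genes nearest in pattern to Ifit1 and to Ifitm3 among genes with 100 counts in a library, leaving out members, gene models and pseudogenes; 1 gene that this rule names is not reported here, and counts over its list are not given. Ifnlr1, Ifnb1, Cmtr1, Zdhhc20, Muc5ac, Muc5b, Acta2, Pcgf5, Ch25h and the marker genes given singly were chosen after their values were seen. Alternatives covered the scaling (total counts, DESeq2 1.42.0 size factors, TMM without marker genes of other tissues), the count minimum, the fold limit, an added count and the summing of similar copies.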

Additional observations from a re-analysis of the deposited data

How the results depend on the processing

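No paired analysis was possible because each group has 1 library, and for the same reason no replicate could be left out. Of 96 member ratios recomputed with other scalings or 0.5 counts added, 94 kept their sign, 90 stayed within their counting interval, and the largest shift was 0.080 on the log2 scale. The 2 that changed sign were near 0: Ifitm3 for PNU-282987 against sham under total counts (-0.016) and Ifitm1 for PNU-282987 against excision under DESeq2 size factors (0.0022). Under total counts the IFIT median was 2.62 for excision against sham and the IFITM median 0.028 for PNU-282987 against sham. Both follow from the scaling itself, since total counts placed the median of all genes at -0.075 for excision against sham and -0.079 for PNU-282987 against sham. With Ifitm1, Ifitm2 and Ifitm3 summed, the log2 ratio was 0.20 for excision against sham and -0.093 for PNU-282987 against excision, since Ifitm1 holds most of the counts.

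The members called did not change in number under the scalings, the minimums, the added count or a limit of 1.5-fold in PNU-282987 against excision. At 1.5-fold they were 6 higher in excision than in sham, and at 4-fold they were 3 higher in excision than in sham and 3 lower in PNU-282987 than in excision. Counts over all genes depended on the limits, by construction. For excision against sham they were 948 higher with no minimum beyond 1 count, 237 higher and 313 lower with a minimum of 100 counts, 1166 and 1281 at 1.5-fold, and 183 and 286 at 4-fold. PNU-282987 against excision gave 1240 lower with no minimum, 224 higher and 287 lower with 100 counts, 1081 and 1582 at 1.5-fold, and 195 and 245 at 4-fold. PNU-282987 against sham gave 649 higher and 1080 lower with no minimum, 127 and 199 with 100 counts, 712 and 1376 at 1.5-fold, and 99 and 153 at 4-fold. Depth limited Ifit2 and Ifitm10 most among the members.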
